A study of Rattus norvegicus with 4 samples.

Results

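Mitochondrial ribosomal proteins, the nucleus-encoded proteins of the ribosome that works inside mitochondria, were compared between cardiomyocytes infected to overexpress Smyd2 and cardiomyocytes infected with a beta-galactosidase control. Members were all array features whose platform gene symbol reads Mrpl or Mrps followed by a number, with the brightest feature kept for each gene. This gave 70 of the 19868 genes on the array, 41 of the large subunit (Mrpl) and 29 of the small subunit (Mrps), from 106 features. The cells were ventricular cardiomyocytes of Sprague-Dawley rats at postnatal day 3, cultured for 48 h with 5% horse serum; the medium also held cytosine arabinoside (20 µM), a drug against proliferating cells. The group labelled Smyd2 (2 cultures) then received adenovirus carrying Smyd2 for 48 h, and the group labelled beta-galactosidase (2 cultures) received adenovirus carrying LacZ. Virus, serum and cytosine arabinoside were thus common to all 4 cultures. All 4 titles also begin with siScr, and whether every culture received a small interfering RNA is not settled by the labels. Every culture has 1 array of a single colour, and values are log2 intensities, so that 1 unit is a doubling. SMYD2 is a lysine methyltransferase, and the comparison asks which transcripts differ when it is in excess.

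The mitochondrial ribosome makes the few respiratory chain proteins that mitochondrial DNA encodes. Its RNA is mitochondrial, but every protein in it is made in the cytosol and imported, so the transcripts measured here come from nuclear genes. The small subunit decodes the messenger RNA, and the large subunit forms the peptide bonds and feeds the new chain into the inner membrane. Some of its proteins have a counterpart in bacterial ribosomes, and others are found only in mitochondria. The heart depends heavily on oxidative metabolism, and inherited defects of human MRPL3, MRPL44 and MRPS22 are known causes of cardiomyopathy.

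The deposited arrays shared 1 distribution, with a median log2 intensity of 4.70 on each, so a difference says how a gene moved against the other features. The single feature for Smyd2 itself read 8.92 and 8.42 on the arrays labelled Smyd2, against 8.72 and 8.86 on the beta-galactosidase arrays. These groups overlapped (log2 difference −0.12, SE 0.28, limma adjusted p = 0.913). The position of that probe was not analysed here. Directions below therefore rest on the labels alone. Cardiomyocyte markers were present in both groups, with no marker of that list dim on average.

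Most mitochondrial ribosomal protein transcripts were lower on the arrays labelled Smyd2, by a similar moderate amount in both subunits. Of the 41 large subunit members, 38 were lower and 3 were higher. Their median log2 difference was −0.45, a 1.37-fold lower level. Of the 29 small subunit members, 28 were lower and 1 was higher. Their median was −0.46, also 1.37-fold. Over all genes tested the median was 0.01, and 48.8% of genes were lower. No member passed limma's test after Benjamini-Hochberg adjustment over all genes, and 0.0% of all genes did. In limma with the variance following intensity and a robust prior, 0 members passed, against 1.45% of all genes called lower. The lowest limma adjusted p was 0.249 among large subunit members and 0.259 among small subunit members. The standard error of a single member lay between 0.22 and 0.37, so differences near the median could not be told from 0 one gene at a time.

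The direction was nevertheless shared across arrays. In 61 of the 70 members, both arrays labelled Smyd2 read below both control arrays, against 20.8% of all genes. This held for 34 of 41 large subunit members and 27 of 29 small subunit members. All members but Mrps28 and Mrps10 averaged at least 6 on the log2 scale. Among all genes that bright, 24.8% were lower with separate groups and 48.0% were lower at all. At an unadjusted limma p under 0.05, 9 large and 8 small subunit members were lower, against 6.39% of all genes. These counts were not stable, with 0 to 13 large and 1 to 8 small subunit members when an array was left out (0 and 1 without Smyd2 replicate 1), and up to 21 and 14 with an intensity trend. The share of all genes was not taken in those other fits, so whether it moved alike is not known. With every array and no trend, 1 member, Mrps10, had an unadjusted limma p under 0.05 in the higher direction, against 5.51% of all genes. Both groups were separate in the higher direction for 3 members, Mrpl49, Mrpl52 and Mrps10, against 21.9% of all genes. The remaining 6 members, Mrpl4, Mrpl23, Mrpl36, Mrpl43, Mrpl53 and Mrps5, had overlapping groups.

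**Figure D1:**
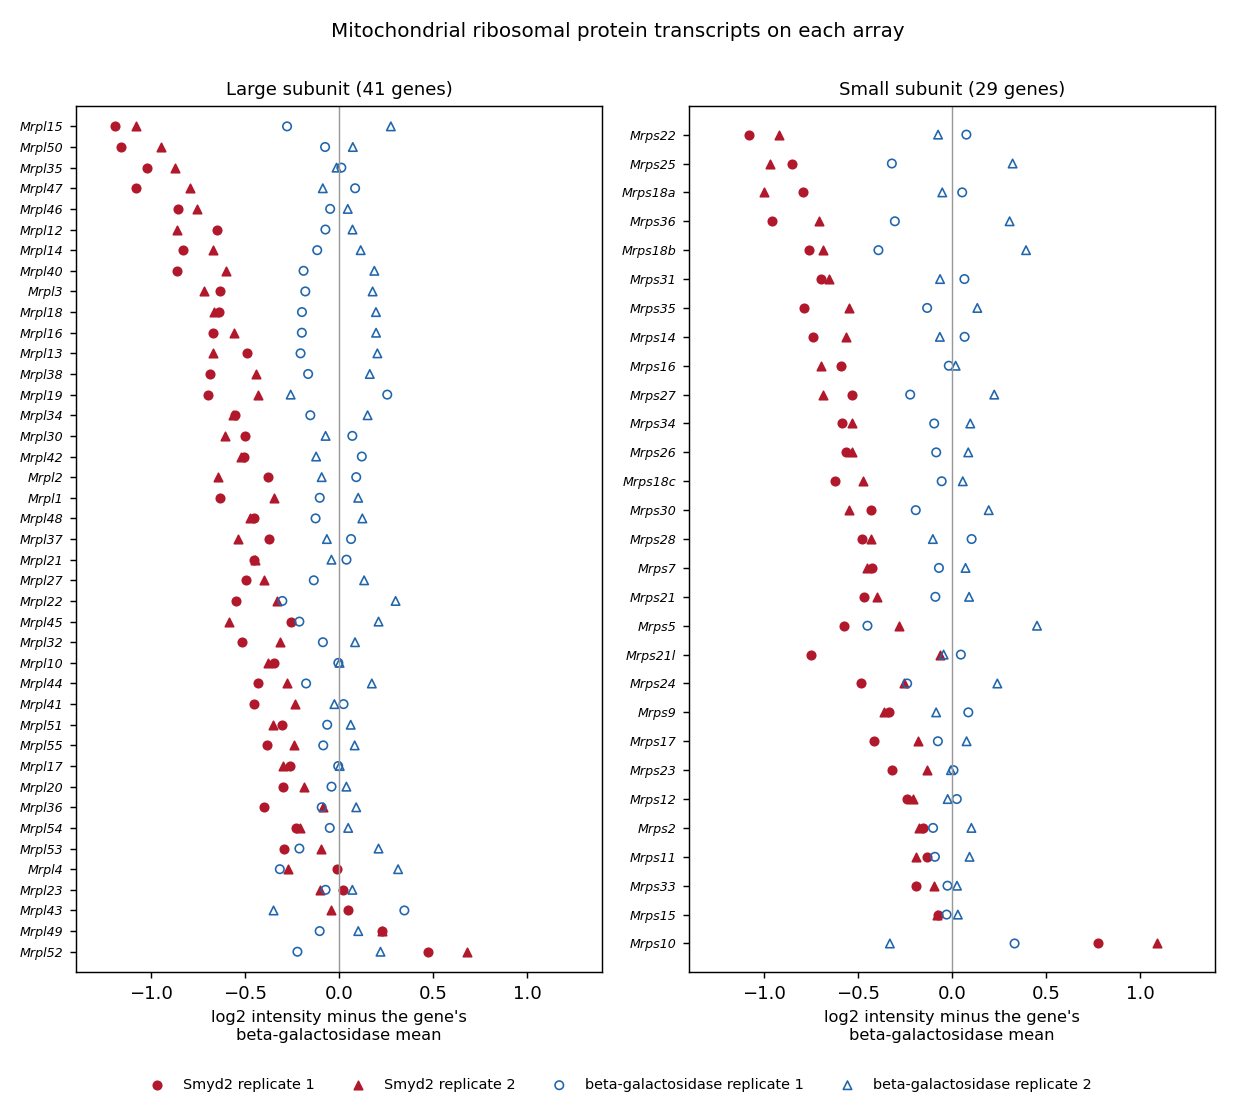
Log2 intensity of every member on each array, minus the mean of that gene's 2 beta-galactosidase arrays, with genes running down the page from the lowest to the highest difference in each subunit. Filled red symbols (Smyd2) lie left of open blue symbols (beta-galactosidase) in 61 of 70 genes, and right of them in 3.

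The 2 arrays of a group also differed from each other, and these gaps were smaller than the difference between groups in most members. The median absolute gap was 0.13 log2 units between the arrays labelled Smyd2 and 0.18 between the control arrays, against a median absolute difference between groups of 0.47. Over all genes the same gaps were 0.25 and 0.38, and the median absolute difference was 0.29. Of all 19868 genes 10728 averaged under 6, against 2 of the members, and the gaps were not taken over genes of like brightness. In 57 members, 34 large and 23 small, the difference between groups, in either direction, exceeded both gaps. Mrpl49, Mrpl52 and Mrps10, which were higher, are included. The same count was not made over all genes. Measured from the mean of the control arrays, the median member lay at −0.49 on Smyd2 replicate 1 and −0.45 on Smyd2 replicate 2. The control arrays themselves lay at −0.080 for replicate 1 and 0.080 for replicate 2. Those values mirror each other by construction, because the control arrays make up that mean. Control replicate 1 minus control replicate 2 had a median of −0.16 over the members. Smyd2 replicate 1 read below control replicate 1 in 65 members and below control replicate 2 in 66. Smyd2 replicate 2 did so in 63 and 66 members.

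Large subunit members were led by Mrpl15, Mrpl50, Mrpl35 and Mrpl47. Mrpl50, a protein found only in mitochondrial ribosomes, read 8.91 and 9.12 on the arrays labelled Smyd2, against 9.997 and 10.14 on the control arrays. Both Smyd2 values lay well below both controls, a 2.07-fold lower level (log2 difference −1.05, SE 0.24, 95% interval −1.66 to −0.44, limma adjusted p = 0.249). Mrpl35, which has a bacterial counterpart, read 7.86 and 8.01 on the arrays labelled Smyd2 and 8.90 and 8.87 on the control arrays. Its groups were separate by more than either replicate gap (difference −0.95, SE 0.23). Mrpl15, also conserved from bacteria, had the lowest difference of all 70 members when read from its brightest feature. It read 6.95 and 7.07 on the arrays labelled Smyd2, against 7.87 and 8.42 on the control arrays, a 2.20-fold lower level (difference −1.13, SE 0.29, limma adjusted p = 0.282). The control arrays disagreed here by more than the Smyd2 arrays did. Its second feature, which was dim, differed by −0.09, and the mean of both features differed by −0.61. Mrpl47, the counterpart of a bacterial protein near the exit of the peptide tunnel, read 7.37 and 7.65 on the arrays labelled Smyd2 and 8.53 and 8.36 on the control arrays (difference −0.94, SE 0.25).

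Mrpl46, Mrpl12, Mrpl14 and Mrpl40 followed, with differences of −0.80, −0.75, −0.75 and −0.73. Mrpl12 forms the flexible stalk that receives translation factors, and the human protein also binds the mitochondrial RNA polymerase. It read 13.28 and 13.06 on the arrays labelled Smyd2 and 13.85 and 13.99 on the control arrays, so that the groups were separate (SE 0.24, limma adjusted p = 0.354). Mrpl14 lies at the face that meets the small subunit, and read 12.02 and 12.18 on the arrays labelled Smyd2 and 12.73 and 12.96 on the control arrays. Both genes were bright and well within the scale, whose highest value was 15.999. Mrpl41, a protein found only in mitochondrial ribosomes, read 11.32 and 11.53 on the arrays labelled Smyd2, against 11.79 and 11.74 on the control arrays. Its groups were separate at a smaller difference of −0.34 (SE 0.23). The other large subunit members with separate groups in the lower direction differed by −0.68 (Mrpl3) to −0.22 (Mrpl54).

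The large subunit members that were not lower were few. Mrpl52 read 8.09 and 8.30 on the arrays labelled Smyd2, against 7.40 and 7.84 on the control arrays (difference 0.58, SE 0.27, limma adjusted p = 0.497). It was 0.36 without control replicate 1. Mrpl49 read 7.84 on both arrays labelled Smyd2, against 7.50 and 7.71 on the control arrays (difference 0.23, SE 0.23). Both are proteins found only in mitochondrial ribosomes, and the groups of each were separate in the higher direction without passing the test. Mrpl43 read 8.98 and 8.89 on the arrays labelled Smyd2, against 9.28 and 8.59 on the control arrays, so that the controls lay on either side (difference 0.00, 95% interval −0.81 to 0.81). For Mrpl23, the counterpart of a bacterial protein at the exit of the peptide tunnel, the difference was −0.04, with a 95% interval of −0.64 to 0.55. Both intervals include the median of the large subunit, so these values do not set the genes apart from the rest.

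Small subunit members were led by Mrps22, Mrps25 and Mrps18a. Mrps22, the protein whose human gene is linked to cardiomyopathy, read 7.27 and 7.43 on the arrays labelled Smyd2, against 8.43 and 8.28 on the control arrays. Its groups were separate, with a 2.004-fold lower level (log2 difference −1.003, SE 0.23, 95% interval −1.61 to −0.40, limma adjusted p = 0.259). Mrps25, a protein found only in mitochondria, read 11.55 and 11.43 on the arrays labelled Smyd2 and 12.08 and 12.72 on the control arrays (difference −0.91, SE 0.30). Its size rested partly on control replicate 2, and over the fits that left out an array each it ran from −1.23 to −0.59. Mrps31, Mrps35, Mrps14 and Mrps16 differed by −0.68, −0.67, −0.65 and −0.64. Of these, Mrps16, which has a bacterial counterpart, read 12.79 and 12.68 on the arrays labelled Smyd2, against 13.36 and 13.40 on the control arrays. The replicate gaps of Mrps16 were small beside that difference (SE 0.23, limma adjusted p = 0.384).

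Mrps10, the counterpart of a protein in the head of the bacterial small subunit, was the only small subunit member that was higher. It read 5.42 and 5.74 on the arrays labelled Smyd2, against 4.98 and 4.32 on the control arrays (difference 0.93, SE 0.32, 95% interval 0.10 to 1.76, limma adjusted p = 0.377). It was 0.60 without control replicate 2. All 4 values were dim, below 6, and the table carries no detection flags, so whether the probe lay above background is not known. The same holds for Mrps28, which averaged 2.74, near the floor of the scale at 2.074; its difference was −0.46. Mrps11, Mrps33 and Mrps15 differed least among those that were lower, by −0.17, −0.15 and −0.08. The values of Mrps15 were 8.42 on both arrays labelled Smyd2 and 8.47 and 8.53 on the control arrays, so the groups were separate by a margin far below its standard error of 0.22. The remaining small subunit members with separate groups in the lower direction, apart from those described below, differed by −0.61 (Mrps27) to −0.17 (Mrps2).

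Several members do not belong where their symbol places them. Mrps18a and Mrps30 are named as small subunit proteins, but structures of the mammalian mitochondrial ribosome place both in the large subunit. Mrps18a read 10.38 and 10.18 on the arrays labelled Smyd2, against 11.23 and 11.12 on the control arrays (difference −0.90, SE 0.24). Mrps30 read 10.83 and 10.72 on the arrays labelled Smyd2 and 11.07 and 11.46 on the control arrays (difference −0.49, SE 0.26), and −0.30 without control replicate 2. Both genes had separate groups. Mrps18b and Mrps18c are the paralogues of Mrps18a that do sit in the small subunit. Mrps18b read 6.90 and 6.97 on the arrays labelled Smyd2 and 7.27 and 8.05 on the control arrays. Its difference of −0.72 (SE 0.34) was the least certain of the 3 paralogues, and was −0.33 without control replicate 2. Mrps18c read 11.05 and 11.20 on the arrays labelled Smyd2 and 11.61 and 11.73 on the control arrays (difference −0.55, SE 0.23). All 3 paralogues were thus lower with separate groups, and none passed the test (limma adjusted p = 0.293 to 0.491). Mrps36, now called Kgd4, links subunits of the oxoglutarate dehydrogenase complex of the citrate cycle and is no longer counted as a ribosomal protein. It read 10.98 and 11.23 on the arrays labelled Smyd2, against 11.63 and 12.24 on the control arrays (difference −0.83, SE 0.31, limma adjusted p = 0.397). Without control replicate 2 its difference was −0.53.

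Proteins with and without a bacterial counterpart were lower alike in direction. Of all genes 48.8% were lower, and 20.8% were lower with separate groups. Among large subunit members with a counterpart, 25 of 25 were lower, with a median of −0.51, and 22 had separate groups. Among those without, 13 of 16 were lower, with a median of −0.39, and 12 had separate groups in the lower direction. In the small subunit the order of the medians was the other way round. Members with a counterpart had a median of −0.37 (14 of 15 lower), and members without had a median of −0.61 (9 of 9 lower). These splits were not tested. The members left outside them were Mrps18a, Mrps30, Mrps18b, Mrps36 and Mrps21l, a copy of Mrps21 with a symbol of its own, which differed by −0.41.

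**Figure D2:**
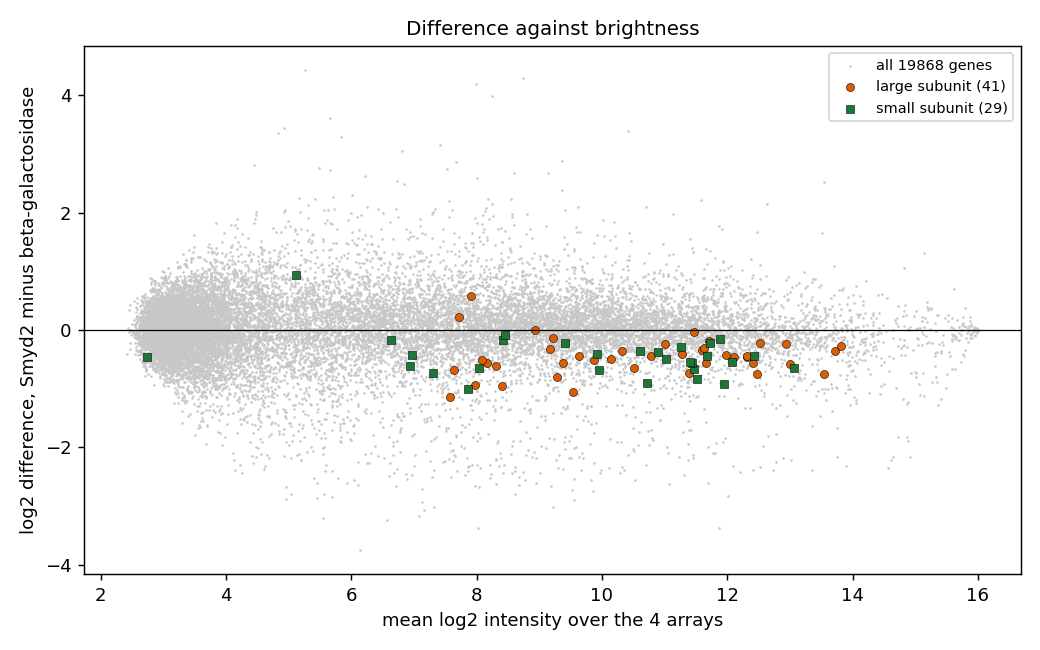
Log2 difference (Smyd2 minus beta-galactosidase) of each gene against its mean log2 intensity over the 4 arrays, for all 19868 genes (grey) and the large (orange circles) and small (green squares) subunit members. Of the 70 members 66 sit below 0 and 4 above it, between −1.13 and 0.93, inside the spread of all genes; Mrps28 and Mrps10 are the only members with a mean under 6.

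Repeated features read the same cultures again, so they are no further replicates. For 20 members the array held more than 1 feature, 56 features in all. All 48 of these features with a mean of at least 6 were lower on the arrays labelled Smyd2. The 5 that were higher, in Mrpl30, Mrps21, Mrps33 and Mrps35, were dim. Mrpl12 had 10 features, whose differences ran only from −0.80 to −0.71. Mrpl45 had 4, from −0.48 to −0.41, and the features of Mrps36 differed by −0.99 and −0.83. Agreement was looser elsewhere, with −0.17 and −0.45 for Mrps11 and −0.61 and −1.03 for Mrps27. Taking the mean of all features turned Mrps33 to 0.078, and moved Mrpl15 to −0.61, Mrps35 to −0.18 and Mrps11 to −0.31. The second features of Mrps33, Mrpl15 and Mrps35 were dim. The RefSeq table of the current rat assembly lists pseudogenes for 23 of the 70 members, 9 of them for Mrpl30 alone, and probes may read such copies as well. The median was −0.51 for members with such entries and −0.45 for the 47 without, of which 44 were lower.

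**Figure D3:**
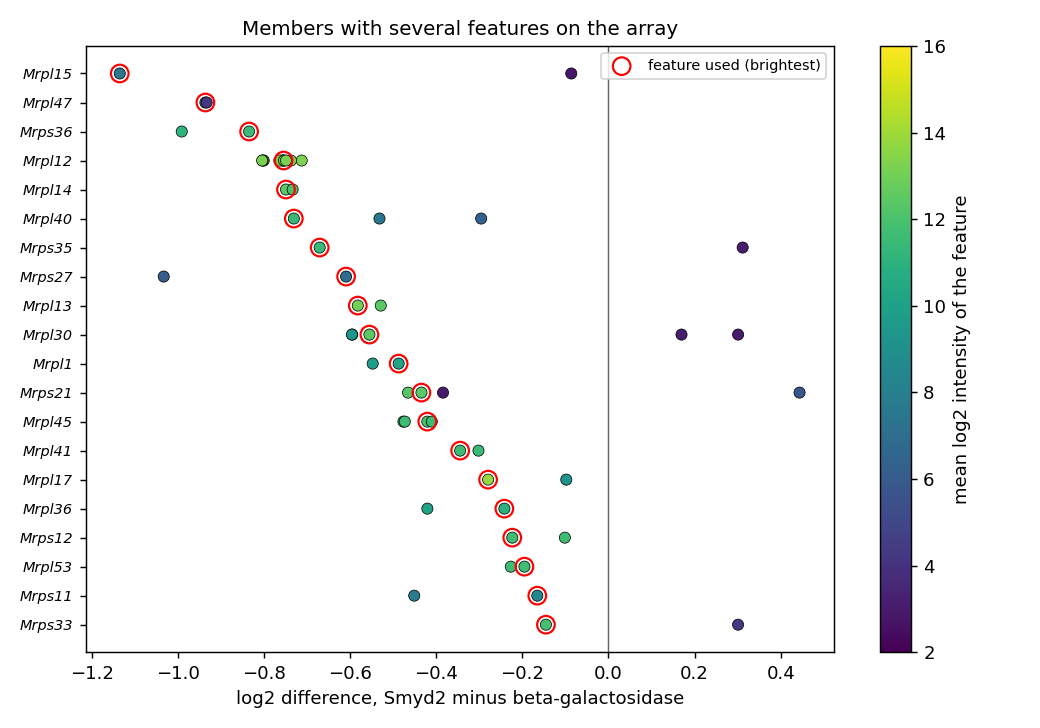
Log2 difference (Smyd2 minus beta-galactosidase) of every feature of the 20 members with several features, coloured by the feature's mean log2 intensity; red rings mark the feature used. The features right of 0 are dark, that is, dim (mean under 6), and the 10 features of Mrpl12 lie close together near −0.75.

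Promoter sequences from RefSeq (build GRCr8, 250 bases before to 50 after the start) matched 55 of the 70 members. They were searched on both strands for the letters of factors known to act on nuclear genes for mitochondria: GCGCANGCG for NRF1, CCGGAAG for GABPA, AAGATGGCG for YY1 and TCAAGGTCA for ESRRA. The NRF1 letters occurred in 11 of 55 member promoters (20.0%), against 8.05% of the promoters of 19005 protein-coding genes. GABPA letters occurred in 18 (32.7%, against 11.2%), YY1 letters in 9 (16.4%, against 2.29%) and ESRRA letters in 0 (against 0.353%). Any of NRF1, GABPA or YY1 was found in 31 member promoters, 56.4%, against 19.0%. Forms of the NRF1 and YY1 letters that are 1 base longer at the 3′ end, which were searched first, occurred in 8 (14.5%, against 6.09%) and 7 (12.7%, against 1.54%). Matches of different motifs overlapped in 0 members. These shares describe letters, and no match shows binding.

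Members with any of the first 3 motifs had a median difference of −0.46, and members without had a median of −0.36. With the longer forms these medians were −0.45 and −0.44, so the gap between them depended on the length of both motifs searched and was not tested. The 120 bases before the start are shown for members that carry an NRF1 or GABPA match there, in capitals, chosen to span the range of differences. They run from Mrps18a, among the lowest, to Mrpl52, which was higher.
Mrps18a (chr9:22367381-22367500, minus strand): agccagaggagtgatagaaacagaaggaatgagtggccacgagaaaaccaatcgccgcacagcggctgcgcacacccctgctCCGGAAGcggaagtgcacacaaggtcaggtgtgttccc
Mrps18b (chr20:2842886-2843005, plus strand): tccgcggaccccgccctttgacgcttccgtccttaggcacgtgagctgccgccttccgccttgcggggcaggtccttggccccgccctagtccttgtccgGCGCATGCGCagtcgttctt
Mrps31 (chr16:76324066-76324185, minus strand): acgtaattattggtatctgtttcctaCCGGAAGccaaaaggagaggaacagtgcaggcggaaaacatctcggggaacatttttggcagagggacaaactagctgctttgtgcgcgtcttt
Mrpl32 (chr17:55260531-55260650, plus strand): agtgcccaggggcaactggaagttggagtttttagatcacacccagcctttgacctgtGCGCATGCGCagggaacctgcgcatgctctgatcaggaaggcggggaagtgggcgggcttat
Mrpl17 (chr1:169575700-169575819, minus strand): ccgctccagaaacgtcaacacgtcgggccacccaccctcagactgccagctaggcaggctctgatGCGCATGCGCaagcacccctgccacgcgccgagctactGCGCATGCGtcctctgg
Mrpl52 (chr15:31852816-31852935, plus strand): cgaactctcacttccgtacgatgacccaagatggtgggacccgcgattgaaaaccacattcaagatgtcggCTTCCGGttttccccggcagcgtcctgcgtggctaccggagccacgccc
Mrps18a, Mrps31 and Mrpl52 carry the GABPA letters (on the reverse strand in Mrpl52), and Mrps18b, Mrpl32 and Mrpl17 the NRF1 letters, which Mrpl17 holds at separate places. Matches that reach past the start, such as a GABPA match in Mrps18b and a YY1 match in Mrps18a, are counted above but lie outside the stretch shown. Their differences were −0.90, −0.68 and 0.58 for the GABPA matches, and −0.72, −0.41 and −0.28 for the NRF1 matches.

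A large and a small subunit gene, Mrpl46 and Mrps11, start back to back and share the 233 bases between their starts, shown because 1 stretch stands before a member of each subunit.
Mrps11 and Mrpl46 (chr1:142117031-142117263, plus strand, read towards Mrps11): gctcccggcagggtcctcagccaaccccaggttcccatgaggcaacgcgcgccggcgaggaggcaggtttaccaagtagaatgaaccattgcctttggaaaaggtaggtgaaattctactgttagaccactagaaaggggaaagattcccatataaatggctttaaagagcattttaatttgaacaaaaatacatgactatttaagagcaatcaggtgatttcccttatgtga
No letters are in capitals, since 0 of the motifs searched lie between the starts. A YY1 match of Mrpl46 lies past its start, outside this stretch, and is counted above. Mrpl46 read 8.83 and 8.94 on the arrays labelled Smyd2, against 9.64 and 9.74 on the control arrays (difference −0.80, SE 0.23, limma adjusted p = 0.314). Mrps11 read 8.37 and 8.31 on the arrays labelled Smyd2, against 8.41 and 8.60 on the control arrays (difference −0.17, SE 0.23, limma adjusted p = 0.836). Both genes were lower with separate groups. The difference between the 2 genes was not tested.

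Other genes of the mitochondrial translation system were also lower more often than not, and none passed limma's adjusted test. The 7 mitoribosome proteins with other platform symbols were all lower, with a median of −0.32 and 5 with separate groups. Over all genes, 20.8% were lower with separate groups. Chchd1, a small subunit protein, read 11.34 and 11.44 on the arrays labelled Smyd2 and 11.87 and 12.04 on the control arrays (difference −0.57, SE 0.23). The present-day Mrpl58, which frees stalled chains, and Mrpl57 differed by −0.55 and −0.54. Of 14 translation factors 11 were lower, with a median of −0.40 and 8 with separate groups. The elongation factor Gfm1 read 10.65 and 10.58 on the arrays labelled Smyd2, against 11.59 and 11.62 on the control arrays (difference −0.99, SE 0.23, limma adjusted p = 0.250). The recycling factor Gfm2, at dim values near 6, and the initiation factor Mtif2 differed by −0.99 and −0.72.

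Assembly and modification factors showed a smaller shift, with 18 of 25 lower and a median of −0.16. Of these factors 9 (36%) were lower with separate groups, against 20.8% of all genes and 24.8% of genes averaging at least 6. Among the factors, the ribosomal RNA methyltransferases Mrm2 and Mrm3 differed by −0.65 and −0.71 (Mrm3 near 6). Mettl15 (−1.11) was dim, and its 3 features ran from −1.11 to 0.30. Of 18 aminoacyl-tRNA synthetases and related enzymes of mitochondria 14 were lower, with a median of −0.25. Separate groups were seen for 9 in the lower direction and 0 in the higher. Yars2 and Qrsl1 differed by −0.49 and −0.48, and Nars2 by −1.50 at dim values. Of 16 genes for mitochondrial DNA transcription and replication 14 were lower, with a median of −0.33. Separate groups were seen for 9 in the lower direction and 1 in the higher. The elongation factor Tefm differed by −0.86, Mterf2 by −0.62 and the tRNA processing subunit Trmt10c by −0.86, with values near or under 6.

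Among 9 regulators of nuclear genes for mitochondria, 8 were lower, with a median of −0.32. Of the 9, 4 (44.4%) had separate groups in the lower direction, against 20.8% of all genes. In the higher direction 0 did, against 21.9% of all genes. Ppargc1a, the coactivator PGC-1 alpha, read 3.70 and 3.51 on the arrays labelled Smyd2 and 5.73 and 5.84 on the control arrays. All 4 values were dim, and its other feature differed by −0.34. Its relative Ppargc1b read 7.76 and 7.98 on the arrays labelled Smyd2, against 8.91 and 9.22 on the control arrays (difference −1.20, SE 0.25, limma adjusted p = 0.232). The nuclear receptor Esrra differed by −0.68 (SE 0.27). The DNA-binding factors Nrf1, Gabpa and Yy1 differed by −0.25, −0.02 and −0.03, and the groups of each overlapped. Their standard errors were 0.43, 0.24 and 0.29.

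**Figure D4:**
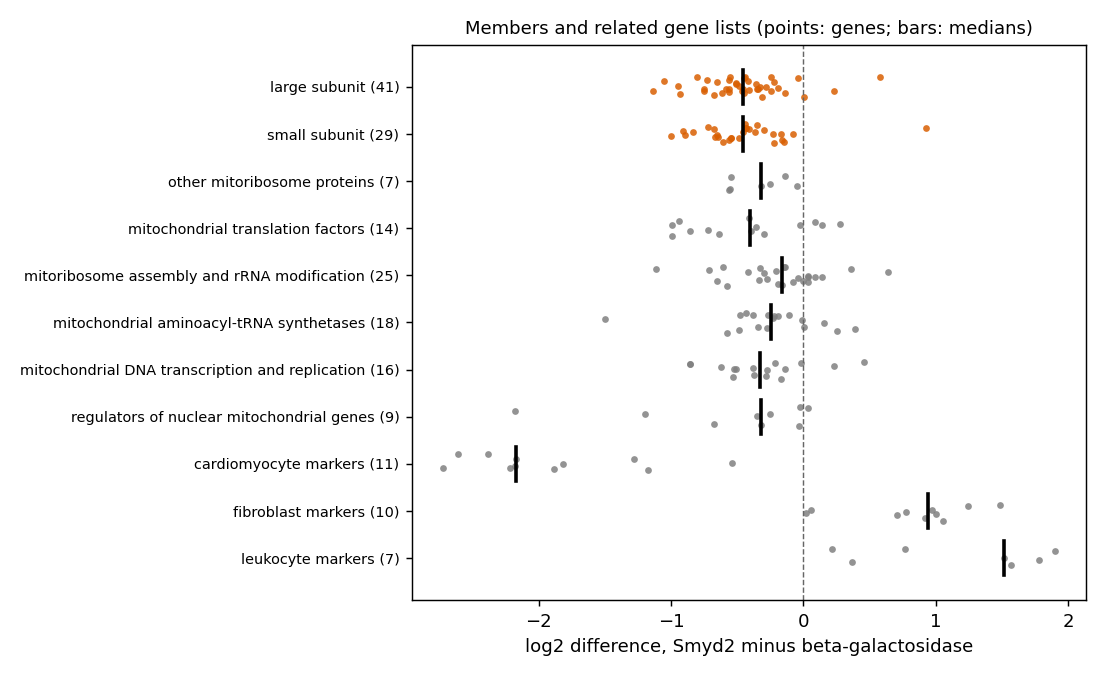
Log2 difference (Smyd2 minus beta-galactosidase) of each gene in the subunits (orange) and in related lists and cell type markers (grey); black bars are medians and numbers in brackets are genes measured. Both subunit medians lie near −0.46, cardiomyocyte markers lie further left at −2.17, and fibroblast and leukocyte markers lie right of 0.

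Respiratory chain subunits, a list drawn up to include complex II and ATP synthase genes, had 76 of 83 members lower and a median of −0.80. Separate groups in the lower direction were seen in 71 of them, against 20.8% of all genes. For 6 genes of the list both control arrays reached the top of the scale, and for 1 of these all 4 arrays did. The difference of that gene has no direction, and those of the other 5 are bounds. Cyc1, the cytochrome c1 of complex III, read 14.22 and 14.26 on the arrays labelled Smyd2 and 15.35 and 15.65 on the control arrays. Cox8b and Ndufs4 differed by −2.32 and −1.28, with Ndufs4 at dim values. For cytosolic ribosomal proteins the median was 0.00, with 32 of 75 lower. That value cannot be set beside the others, because 40 of these 75 genes lay above 15.8994 on all 4 arrays. Here a value above 15.8994, just under the highest value of 15.999, counts as reaching the top of the scale. Of those below it, Rps4x differed by 0.45 (SE 0.23), Rps27l by −0.30 (SE 0.24) and the dim Rpl39l1 by 0.64 (SE 0.27). No member of the mitochondrial ribosome reached the top of the scale. Whether any of these lists differs from the mitochondrial ribosomal proteins was not tested.

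Markers of cell types moved beside these results. All 11 cardiomyocyte markers were lower, with a median of −2.17, and 3 of them reached the top of the scale in both controls, so that their differences are bounds. Their summed intensity, as log2, was 17.32 and 17.14 on the arrays labelled Smyd2, against 18.61 and 18.69 on the control arrays. All 10 fibroblast markers read higher, with a median of 0.94. In 6 of them (Col1a1 included) the groups were separate, against 21.9% of all genes in the higher direction. The groups of Col1a2, Col3a1, Dcn and Tcf21 overlapped. For Col3a1, Dcn and Tcf21, control replicate 1 read 13.28, 6.49 and 5.92, against 15.32, 9.26 and 7.45 on control replicate 2. Col1a1, at the top of the scale on all 4 arrays, has no readable direction and also enters the sums. The summed values were 17.42 and 17.25 on the arrays labelled Smyd2, against 16.95 and 17.27 on the control arrays. All 7 leukocyte markers read higher, with a median of 1.51, and 2 of them had separate groups, against 21.9% of all genes. Their summed values were 13.60 and 12.19 on the arrays labelled Smyd2, against 11.68 and 10.70 on the control arrays. Lyz2 alone read 13.48 and 12.05 on the arrays labelled Smyd2 and 11.46 and 10.51 on the control arrays. The sums thus mostly follow that gene. Of the 7 leukocyte markers, C1qa, Csf1r, Itgam and Ptprc were dim on average. Of 6 markers of smooth muscle and pericytes 5 were higher, with summed values of 14.15 and 13.99 on the arrays labelled Smyd2 and 13.76 and 14.35 on the control arrays. Endothelial markers were higher in 3 of 6, with summed values of 10.89 and 10.92 on the arrays labelled Smyd2 and 11.31 and 11.03 on the control arrays. The 2 Schwann cell markers measured, S100b and Sox10, were dim. The summed intensity of the mitochondrial ribosomal proteins was 17.27 and 17.28 on the arrays labelled Smyd2, against 17.67 and 17.82 on the control arrays. In bulk RNA, fewer cells of a type and less RNA per cell cannot be told apart, and the part of these markers in the lower ribosomal protein values was not tested.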

How the data were processed

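Single-colour Agilent arrays (Cy3, low-input amplification, per the labels' protocols) measured 4 cultures. The deposited table holds log2 intensity for 62976 features per array; the submitters' processing notes name limma, and background correction, normalization method and spot handling are steps that no source used here gives. All columns share 1 distribution from 2.074 to 15.999, as between-array normalization leaves them, which removes any overall difference between arrays. Of the features, 36191 had a platform symbol, 28236 of them matched RefSeq by accession and 457 by an older symbol. The brightest feature over the 4 arrays stood for each of 19868 genes. Fits used R 4.3.3 and limma version 3.58.1, with lmFit and eBayes on 2 groups without a block. The two-sided p-values were adjusted by Benjamini-Hochberg across the whole table, with 0.05 as the threshold. There were 2 residual degrees of freedom and a prior of 3.01. The smallest p that exact permutation of 2 arrays against 2 allows is 0.333. The number of arrays limits the precision; the labels call the samples biological replicates without naming separate litters. A mean under 6 was called dim. Lists were described, not tested.

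Named members were the 8 with the lowest and 4 with the highest limma statistic in each subunit, any past the threshold, and some fixed by role; related lists gave the 3 largest statistics. Members named at the ends of a range, for several features or beside a promoter were chosen after their values were seen. Members and lists were chosen with earlier results of these data known, and the role and bacterial-counterpart groups and the motifs were set after the values were seen. The fit was tested on simulated data. Groups and replicate numbers came from the titles. Deviations of same-numbered arrays from their group means correlated at 0.03, and the labels do not say what a shared number stands for. Alternatives were repeated quantile normalization, median centring, a filter on dim genes, an intensity trend with and without a robust prior, a replicate block, other handling of features, current symbols, and leaving out each array.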

Additional observations from a re-analysis of the deposited data

How the results depend on the processing

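No member passed the adjusted threshold under any alternative run, including the intensity trend, alone (243 genes called over all) or with a robust prior (383 called, 288 of them lower), where the lowest limma adjusted p was 0.0519 for a large and 0.0673 for a small subunit member. The medians and the counts of lower members stayed near their values under rescaling, centring, the dim filter, the mean of all features and current symbols. With every feature on its own, 63 of 68 large subunit features were lower. Leaving out an array gave medians of −0.50 to −0.38 for the large and −0.60 to −0.39 for the small subunit (−0.60 without beta-galactosidase replicate 1), with 36 to 39 and 27 to 28 members lower and 0 past the threshold. With the replicate block, where 1 residual degree of freedom is left, the medians remained −0.45 and −0.46 and 0 members passed. In that fit 8 large and 4 small subunit members were lower at an unadjusted limma p under 0.05. Deviations of same-numbered arrays correlated at r = 0.03, which cannot show whether the cultures were paired.

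The count at an unadjusted p under 0.05, added after the data were seen, moved by more than 1.5 times under several settings. The share of all genes at that p was not taken under these settings, so whether it rose alike is not known. For the large and small subunit the count was 18 and 13 without dim genes, and 19 and 14 with the trend and robust prior. With the trend alone it was 21 and 14, and with every feature 20 (large). Leaving out an array gave 0 to 13 and 1 to 8, in fits that take the lone array to vary like the other group: 0 and 1 without Smyd2 replicate 1, 4 and 1 without Smyd2 replicate 2, and 3 (small) without beta-galactosidase replicate 2. Of 28 named members, 22 were lower in every setting run for single genes, which leaves out the counts over every feature and by current symbol. Mrps33 turned to 0.078 with the mean of all features. Without an array, Mrpl23 ran from −0.11 to 0.030 and Mrpl43 from −0.34 to 0.35. In the same fits Mrpl49 ran from 0.13 to 0.33, Mrpl52 from 0.36 to 0.80, Mrps10 from 0.60 to 1.26, Mrps11 from −0.26 to −0.073, Mrps15 from −0.11 to −0.049, Mrps30 from −0.68 to −0.30, Mrps36 from −1.14 to −0.53 and Mrps18b from −1.12 to −0.33. The causes were not tested. The table has no detection flags, which limits Mrps10 and Mrps28.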
